A study of Mus musculus with 12 samples.

Results

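The genes described here are 56 cell cycle and DNA replication genes, picked by symbol from the table of 55487 genes and each found there on 1 row. They are 25 S-phase genes, which copy the DNA, and 31 G2/M genes, which carry cells into and through mitosis. The table came from RNA-seq of 12 libraries of cultured mouse cochlear cells, with 3 libraries in each of 4 groups. Cochlear glial cells were taken at postnatal day 4 from mice on a mixed C57Bl6 and FVB/N background, and all 4 groups came from such cells. Spheres were grown in suspension with EGF at 20 ng/ml, bFGF at 10 ng/ml, IGF at 50 ng/ml and heparan sulfate at 50 ng/ml. SCDM libraries came from plated spheres kept for 14 days with 2 neurotrophins, NT3 and BDNF, each at 50 ng/ml. SCDM/FGF libraries came from the same medium with bFGF added at 100 ng/ml. FIBCL libraries came from cells kept for 14 days in Neurobasal medium with forskolin (20 μM), ISX9 (20 μM), the bromodomain inhibitor I-BET (1 μM), CHIR99021 (10 μM) and LIF (1000 U/ml), plus bFGF that the labels list both at 50 and at 100 ng/ml. The labels list neither BDNF nor NT3 for FIBCL, so base medium, growth factors and small molecules differed together between FIBCL and SCDM. The FIBCL columns of the table are headed FIBC, a name given elsewhere in the study to the mixture lacking LIF, so the presence of LIF cannot be read from the table itself. Cells were dissociated from whole dissected modiolus of several pooled mice and were not sorted, so the cultures can hold cells other than glia.

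Proliferating cells copy their DNA once in S phase, at origins that are licensed by loading the MCM helicase and then fired by cyclin-dependent kinases. E2F factors switch on the genes for this step when the retinoblastoma family of pocket proteins is inactivated, while CDK inhibitors such as Cdkn1a hold it back. The G2/M genes come on later and drive spindle assembly, chromosome separation and cytokinesis. The DREAM complex holds them back, and the MuvB complex with Mybl2 and Foxm1 switches them on. Neurons have left the cycle, while cultured glia of the newborn cochlea can re-enter it.

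Promoters are shown for 6 members, picked on different comparisons. Cdk1 and Ube2c are among the G2/M members with the largest falls between SCDM and FIBCL, and Mcm5 and Mcm6 are among the S-phase members with the largest falls there. Pcna and Tyms are S-phase members picked because their FIBCL level stood near that of the spheres. Between SCDM and FIBCL their log2 fold changes were -0.21 and -1.19. Each run comes from the RefSeq table on GRCm38.p6, is read 5′ to 3′ on the gene's own strand, and ends before both the RefSeq start site and the GENCODE M21 gene. It is 160 bases long, except for 116 bases at Pcna, where the GENCODE gene starts 134 bases before the RefSeq start. For Cdk1 and Ube2c the GENCODE gene starts 26 and 31 bases before it. Capitals mark 3 kinds of letters, searched on both strands, and touching or overlapping matches merge into 1 run of capitals. They are the cell cycle homology region CHR (TTTGAA or TTCGAA), the CCAAT box (CCAAT) and the E2F letters (TTTCGCGC, TTTGGCGC, TTTCCCGC or TTTGCCGC). The stretches lie at chr10:69352939-69353098 (minus strand) for Cdk1, chr2:164769738-164769897 (plus) for Ube2c, chr8:75109349-75109508 (plus) for Mcm5, chr1:128359706-128359865 (minus) for Mcm6, chr2:132253315-132253430 (minus) for Pcna and chr5:30073626-30073785 (minus) for Tyms.
Cdk1: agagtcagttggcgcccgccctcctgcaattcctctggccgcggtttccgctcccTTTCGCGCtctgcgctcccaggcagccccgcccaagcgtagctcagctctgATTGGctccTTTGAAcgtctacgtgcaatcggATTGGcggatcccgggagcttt
Ube2c: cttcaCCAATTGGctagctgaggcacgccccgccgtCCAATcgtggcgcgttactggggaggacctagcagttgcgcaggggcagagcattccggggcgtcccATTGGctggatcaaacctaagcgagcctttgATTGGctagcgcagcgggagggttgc
Mcm5: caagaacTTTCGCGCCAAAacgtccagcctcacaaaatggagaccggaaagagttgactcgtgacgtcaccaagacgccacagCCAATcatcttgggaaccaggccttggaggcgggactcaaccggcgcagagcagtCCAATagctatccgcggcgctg
Mcm6: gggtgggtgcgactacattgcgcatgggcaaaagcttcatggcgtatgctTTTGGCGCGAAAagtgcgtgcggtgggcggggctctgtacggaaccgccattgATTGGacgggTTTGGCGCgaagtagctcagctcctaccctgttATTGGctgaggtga
Pcna: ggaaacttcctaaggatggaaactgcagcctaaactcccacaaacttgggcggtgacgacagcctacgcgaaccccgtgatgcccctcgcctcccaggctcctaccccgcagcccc
Tyms: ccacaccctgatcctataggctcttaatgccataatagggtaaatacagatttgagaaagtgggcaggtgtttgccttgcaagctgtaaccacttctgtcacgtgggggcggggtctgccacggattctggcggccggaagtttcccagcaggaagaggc
In these runs Cdk1 held 1 CHR match, 2 CCAAT boxes and 1 E2F match, and Ube2c held 5 CCAAT boxes, 2 of which overlap on opposite strands. Mcm5 held 2 E2F matches and 2 CCAAT boxes, and Mcm6 held 3 E2F matches and 2 CCAAT boxes. Pcna and Tyms held 0 matches of the 3 kinds in the printed runs. The runs leave out part of the start site windows described next. In that part Pcna held a CCAAT box, Ube2c held CHR letters and Cdk1 held a further CHR match. Cdk1, Ube2c and Mcm5 each held a further CCAAT box there, and Tyms held no match. The runs alone thus do not show which members lack these letters. Cdt1, the 1 member that rose between SCDM and FIBCL, is not among the 6 and held E2F letters in its window.

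RefSeq gave a start site window, from 250 bases before to 50 bases after the start, for 46 of the 56 members and for 27025 genes in all. CHR letters were in the windows of 20 of 26 G2/M members (76.9%), 4 of 20 S-phase members (20%) and 21.7% of all genes. The CCAAT box was found for 21 of 26 G2/M members (80.8%), 13 of 20 S-phase members (65%) and 41.1% of all genes. E2F letters were found for 9 of 20 S-phase members (45%), 1 of 26 G2/M members (3.85%) and 2.6% of all genes. The 1 G2/M member with E2F letters was Cdk1, and the 4 S-phase members with CHR letters were E2f2, Mcm2, Mcm7 and Cdc45. A match describes the letters of the window only.

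Libraries correlated with r from 0.983 to 0.985 within groups and from 0.788 to 0.936 between groups, over 16016 genes tested. The values are TPM, so the depth behind them is unknown, and levels below are TPM after each library was rescaled to the others, called scaled TPM. Without rescaling, the median log2 fold change over all genes between FIBCL and SCDM was -0.40, against -0.07 with it. Glial markers summed to 427 to 443 scaled TPM in spheres and 16.7 to 22.6 in FIBCL, and neuronal markers to 15 to 15.8 in spheres and 399 to 426 in FIBCL. The labels call the SCDM and SCDM/FGF libraries neurons, yet their neuronal markers summed to only 18.7 to 21.5 and 17.1 to 22.3. Markers of other cells moved too. The 10 macrophage markers summed to 142 to 183 in spheres, 168 to 198 in FIBCL, 1810 to 2020 in SCDM and 2020 to 2190 in the SCDM/FGF libraries, and the 8 mesenchymal markers to 1640 to 1720, 209 to 224, 5140 to 5470 and 3700 to 4260 in the same order. The mesenchymal markers split against spheres, with 4 called higher and 3 lower in SCDM, 5 and 2 in SCDM/FGF, and 2 and 6 in FIBCL. In such bulk RNA, fewer dividing cells and less RNA of the cell cycle members per cell cannot be told apart, and the part that other cell types have in the results below was not tested.

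**Figure D1:**
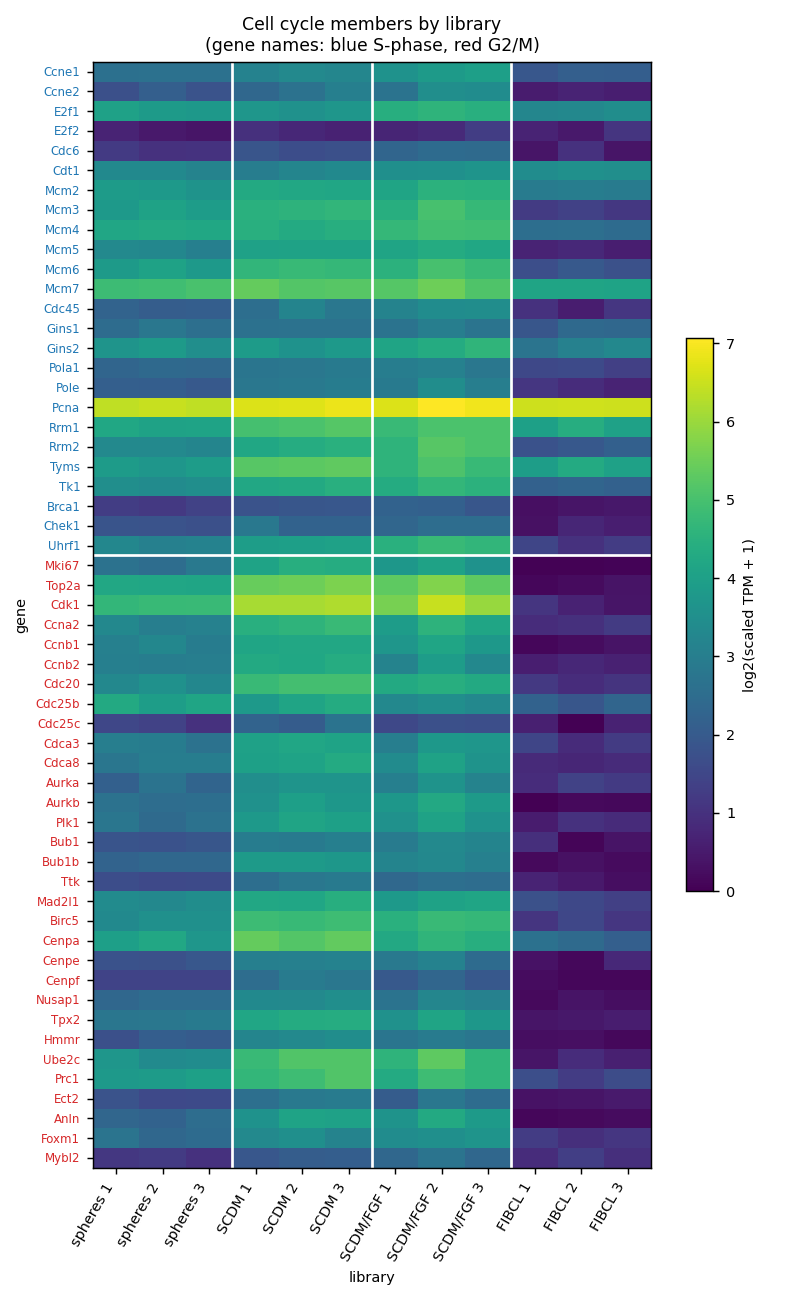
Heat map of log2(scaled TPM + 1) for the 56 members (rows, S-phase names in blue and G2/M names in red) in the 12 libraries (columns, 3 per group). The G2/M rows are darkest in the 3 FIBCL libraries, while Pcna stays between 82.4 and 133 scaled TPM in every library.

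Members of both classes were mostly higher in SCDM and SCDM/FGF than in spheres and lower in FIBCL. The G2/M class moved further in SCDM and in FIBCL. In SCDM/FGF the class medians were close, at 0.91 for G2/M and 0.83 for S-phase members. In SCDM against spheres, 30 of 31 G2/M members rose and 0 fell at a limma adjusted p under 0.05, where 24.5% of all genes tested rose. Their median log2 fold change was 1.27, beside -0.01 over all genes tested. Of 24 S-phase members tested, 20 rose and 0 fell, with a median of 0.64. In SCDM/FGF against the same spheres, where 25% of all genes tested rose and 25.4% fell, 29 G2/M members rose and 1 fell (median 0.91), and 23 S-phase members rose and 0 fell (median 0.83). At a log2 fold change of at least 1.5, 4 G2/M members and 0 S-phase members were called higher in SCDM (3.76% of all genes) and 1 of each in SCDM/FGF (4.12%), while at -1.5 or below 0 members but 2.41% and 1.92% of all genes were called. The macrophage sum given above was also higher in both media, with all 10 of its genes called higher in each. At an unadjusted limma p under 0.05 the counts of 0 given here and below stayed at 0, except that E2f1 was then 1 S-phase member lower in SCDM against spheres.

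In FIBCL against spheres, 38.7% of all genes tested fell. Of the members, 30 of 31 G2/M members fell (median -2.08, beside -0.06 over all genes) and 20 of 24 S-phase members fell (median -0.89), and 0 members of either class rose. At a log2 fold change of -1.5 or below, 22 G2/M and 5 S-phase members were called, against 8.79% of all genes, and 7.13% of all genes but 0 members were called at 1.5 or above. In FIBCL against SCDM, where 39% of all genes fell and 32.7% rose, all 31 G2/M members fell (median -3.19), and 23 S-phase members fell and 1, Cdt1, rose (median -1.42, beside -0.07 over all genes). The larger limit kept 30 G2/M and 12 S-phase members lower, against 9.97% of all genes, and 0 members higher, against 7.89%. In FIBCL against SCDM/FGF, where 38.2% of all genes fell and 32.5% rose, the 31 G2/M members fell (median -2.78) and 23 S-phase members fell (median -1.78). The larger limit kept 28 and 14 of them lower, against 9.8% of all genes, and 0 higher, against 6.97%. These comparisons share the FIBCL libraries. Of the 10 macrophage markers, 9 were called lower in FIBCL than in spheres and 1, Cd68, was called higher, at 2.14. The 9 without Cd68 summed to 16.7 to 22.2 scaled TPM in FIBCL and to 109 to 141 in spheres. With Cd68 the sums were 168 to 198 in FIBCL and 142 to 183 in spheres. Their part in the falls of the members was not tested.

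As a share of the sphere mean, the median G2/M member stood at 13.4% in FIBCL, 268% in SCDM and 212% in the SCDM/FGF libraries. The median S-phase member stood at 40.1%, 181% and 188%. In FIBCL 13 of 31 G2/M members were under 10% of the sphere mean and 27 were under 25%. Among 24 S-phase members 2 were under 10%, 7 were under 25% and 4 were at or above 100%. The 2 were Mcm5 and Mcm3, and the 4 were Tyms, Cdt1, Pcna and Rrm1. These shares depend on the rescaling, and without it the changes of Cdt1, Pcna and Rrm1 against spheres were negative, as given below. Such shares were not computed over all genes, of which 38.7% were called lower in FIBCL than in spheres.

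Averaged over members on the log2(scaled TPM + 1) scale, the S-phase level was 3.21 ± 0.038 (SD, n = 3) in spheres, 2.22 ± 0.066 in FIBCL, 3.78 ± 0.045 in SCDM and 4.07 ± 0.16 in the SCDM/FGF libraries. The G2/M level was 2.75 ± 0.013, 0.76 ± 0.023, 3.96 ± 0.10 and 3.64 ± 0.23 in the same order. The S-phase level less the G2/M level was 0.43 to 0.48 in spheres, 1.37 to 1.55 in FIBCL, -0.22 to -0.11 in SCDM and 0.34 to 0.51 in the SCDM/FGF libraries. SCDM was thus the group in which the G2/M level was above the S-phase level in all 3 libraries, and FIBCL the group with the widest gap. Among the SCDM/FGF libraries, replicate 2 was the highest for both classes, at 4.22 and 3.88.

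**Figure D2:**
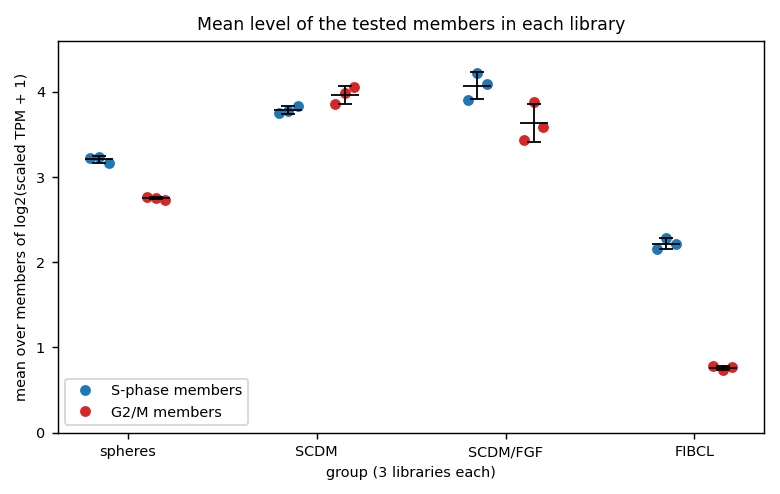
Mean over the tested members of log2(scaled TPM + 1) in each library (points) for 24 S-phase members (blue) and 31 G2/M members (red), with the group mean and SD (black, n = 3). The G2/M points lie above the S-phase points in SCDM and furthest below them in FIBCL, at 0.73 to 0.78 against 2.15 to 2.28.

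Mki67 and Top2a, which coat and untangle the chromosomes of dividing cells, had the lowest FIBCL levels of the members relative to spheres. Mki67 measured 5.36, 4.71 and 6.29 in spheres, 0.0358, 0.0369 and 0.0394 in FIBCL, 16, 20.5 and 19.9 in SCDM, and 12.4, 15.9 and 11.1 scaled TPM in the SCDM/FGF libraries. Top2a, the topoisomerase that separates sister DNA, measured 17.8, 17.1 and 16.9 in spheres, 0.0956, 0.148 and 0.302 in FIBCL, 41.9, 44.8 and 49.9 in SCDM, and 38.4, 51.7 and 38.5 in the SCDM/FGF libraries. Both genes were higher in every SCDM and SCDM/FGF library than in any sphere library and lowest in the FIBCL libraries, with no overlap between those groups. The FIBCL mean was 0.685% of the sphere mean for Mki67 and 1.05% for Top2a. The deposited Mki67 value was 0.03 TPM in each FIBCL library, in a table whose smallest value above 0 is 0.01, so that percentage rests on a coarse number. Mki67 rose by 1.61 ± 0.14 (limma adjusted p = 2.31e-06) in SCDM against spheres on the log2(scaled TPM + 1) scale, which is used for all fold changes here and understates the change of low genes. Its change in FIBCL was -2.63 ± 0.14 (limma adjusted p = 1.28e-08) against spheres and -4.24 ± 0.14 (limma adjusted p = 1.98e-10) against SCDM. Top2a rose by 1.34 ± 0.12 (limma adjusted p = 2.35e-06) in SCDM, and its change in FIBCL was -3.96 ± 0.12 (limma adjusted p = 9.26e-11) against spheres and -5.30 ± 0.12 (limma adjusted p = 9.22e-12) against SCDM.

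The mitotic cyclins and their kinase followed the same order. Cdk1, the kinase that triggers mitosis, measured 24.4, 26.2 and 26.7 in spheres, 1.12, 0.59 and 0.328 in FIBCL, 70.1, 69.6 and 73.6 in SCDM, and 47.9, 87.1 and 62.2 scaled TPM in the SCDM/FGF libraries. Ccnb1, its cyclin B partner, measured 7.49, 8.7 and 6.84 in spheres, 0.0836, 0.184 and 0.289 in FIBCL, 16.8, 17.7 and 17.9 in SCDM, and 12, 16.8 and 12.6 in the SCDM/FGF libraries. In both cases the SCDM and SCDM/FGF libraries lay above the spheres and the FIBCL libraries far below, without overlap. On the log2(scaled TPM + 1) scale, Cdk1 had the largest fall of the 55 tested members between SCDM and FIBCL, at -5.45 ± 0.20 (limma adjusted p = 4.59e-10). This ranking rests on that scale, which understates the falls of members that were lower in FIBCL. Cdk1 changed by -4.02 ± 0.20 (limma adjusted p = 6.77e-09) against spheres and by 1.43 ± 0.20 (limma adjusted p = 0.0001) in SCDM against spheres. Ccnb1 changed by -3.96 ± 0.13 (limma adjusted p = 1.71e-10) between SCDM and FIBCL and by -2.87 ± 0.13 (limma adjusted p = 2.83e-09) against spheres. The pseudogene Ccnb1-ps was at 0 TPM in every library, while Ccnb2-ps, a pseudogene of Ccnb2, was listed at 0.66 to 6.22 TPM, so reads of Ccnb2 may be split between them. The phosphatases that switch Cdk1 on had smaller log2 fold changes between SCDM and FIBCL, at -1.95 for Cdc25b and -1.90 for Cdc25c. The value for Cdc25c, a low gene, is understated on this scale. Cdc25b measured 18.7, 14.2 and 16.7 in spheres, 3.7, 2.74 and 3.92 in FIBCL, 13.1, 16.3 and 19.4 in SCDM, and 8.81, 10.3 and 8.88 scaled TPM in the SCDM/FGF libraries, and its log2 fold change in SCDM against spheres was -0.032 ± 0.15 (limma adjusted p = 0.882), not past the threshold and with overlapping groups. Cdc25b was the 1 G2/M member that fell in SCDM/FGF against spheres, at -0.76 ± 0.15 (limma adjusted p = 0.00161). Cdc25c was listed at 0 in FIBCL replicate 2 and at 0.538 and 0.59 scaled TPM in the others, against 1.84, 1.62 and 1.02 in spheres. Its log2 fold change in SCDM against spheres was 1.02 ± 0.21 (limma adjusted p = 0.00193), on a scale that understates the change of low genes.

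The mitotic kinases and the chromosomal passenger complex, which corrects chromosome attachment, formed a group of 6 members that all rose in SCDM and all fell in FIBCL. These 6 are among the 31 G2/M members counted above. Of all genes, 24.5% rose in SCDM against spheres and 39% fell in FIBCL against SCDM. Plk1, a kinase of spindle and centrosome, measured 5.8, 4.42 and 5.32 in spheres, 0.454, 1.01 and 0.814 in FIBCL, 13.2, 16.4 and 15.3 in SCDM, and 11, 15.7 and 11.2 scaled TPM in the SCDM/FGF libraries. Aurkb, the kinase of the passenger complex, measured 5.29, 4.78 and 4.89 in spheres, 0, 0.135 and 0.105 in FIBCL, 10.9, 14.8 and 12.4 in SCDM, and 12.3, 18.2 and 13.4 in the SCDM/FGF libraries, so 1 FIBCL library was listed at 0. The FIBCL values of both genes were below every other library. Between SCDM and FIBCL, Plk1 changed by -3.19 ± 0.16 (limma adjusted p = 7.63e-09) and Aurkb by -3.66 ± 0.14 (limma adjusted p = 9.19e-10). In SCDM against spheres Plk1 changed by 1.37 ± 0.16 (limma adjusted p = 2.77e-05) and Aurkb by 1.19 ± 0.14 (limma adjusted p = 3.68e-05). For the other 4 members (Aurka, Birc5, Cdca8 and Ttk), the changes between SCDM and FIBCL ran from -3.59 for Birc5, also called survivin, to -2.26 for Ttk.

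Members of the spindle checkpoint, the kinetochore and cytokinesis moved as the kinases did. They are among the 31 G2/M members already counted, and 39% of all genes fell in FIBCL against SCDM. All 6 members tied to the spindle checkpoint and the anaphase-promoting complex fell in FIBCL against SCDM, from -4.39 for Ube2c to -2.49 for Bub1. Ube2c, the ubiquitin-conjugating enzyme of that complex, measured 12.1, 9.46 and 9.75 in spheres, 0.311, 0.873 and 0.551 in FIBCL, 26.8, 34.5 and 34.6 in SCDM, and 23, 38.6 and 23.8 scaled TPM in the SCDM/FGF libraries, with FIBCL lowest and SCDM and SCDM/FGF overlapping. All 3 kinetochore members fell, with changes from -2.91 for Cenpa, the histone variant of centromeres, to -2.60 for Cenpf. Cenpa kept 29.1% of its sphere mean in FIBCL and Cenpf kept 7.08%. All 6 spindle and cytokinesis members fell, from -3.83 for Tpx2, a spindle assembly factor, to -2.37 for Ect2, which starts the cleavage furrow. Of the G2/M members, Cenpf had the highest level in SCDM relative to spheres, at 346%, and the log2 fold change was largest for Mki67.

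The transcription factors of the G2/M genes changed less in FIBCL than their class. Foxm1, which switches on G2/M genes, measured 5.55, 4.16 and 4.55 in spheres, 1.4, 0.922 and 1.15 in FIBCL, 9.02, 10.5 and 7.95 in SCDM, and 9.81, 10.5 and 11.5 scaled TPM in the SCDM/FGF libraries. Mybl2, the MYB factor that joins the MuvB core, measured 1.23, 1.36 and 1.01 in spheres, 0.872, 1.46 and 0.945 in FIBCL, 2.79, 3.22 and 3.29 in SCDM, and 4.15, 5.57 and 4.12 in the SCDM/FGF libraries. FIBCL was lowest for Foxm1 with no overlap, whereas for Mybl2 the FIBCL and sphere libraries overlapped. Foxm1 changed by -1.41 ± 0.13 (limma adjusted p = 1.4e-06) in FIBCL against spheres and by -2.23 ± 0.13 (limma adjusted p = 2.35e-08) against SCDM. Mybl2 was the 1 G2/M member not called in FIBCL against spheres, at -0.078 ± 0.14 (limma adjusted p = 0.634), though it was called at -0.36 without rescaling, and it fell by 0.98 ± 0.14 (limma adjusted p = 6.1e-05) against SCDM. Its mean in FIBCL was 91.2% of the sphere mean.

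**Figure D3:**
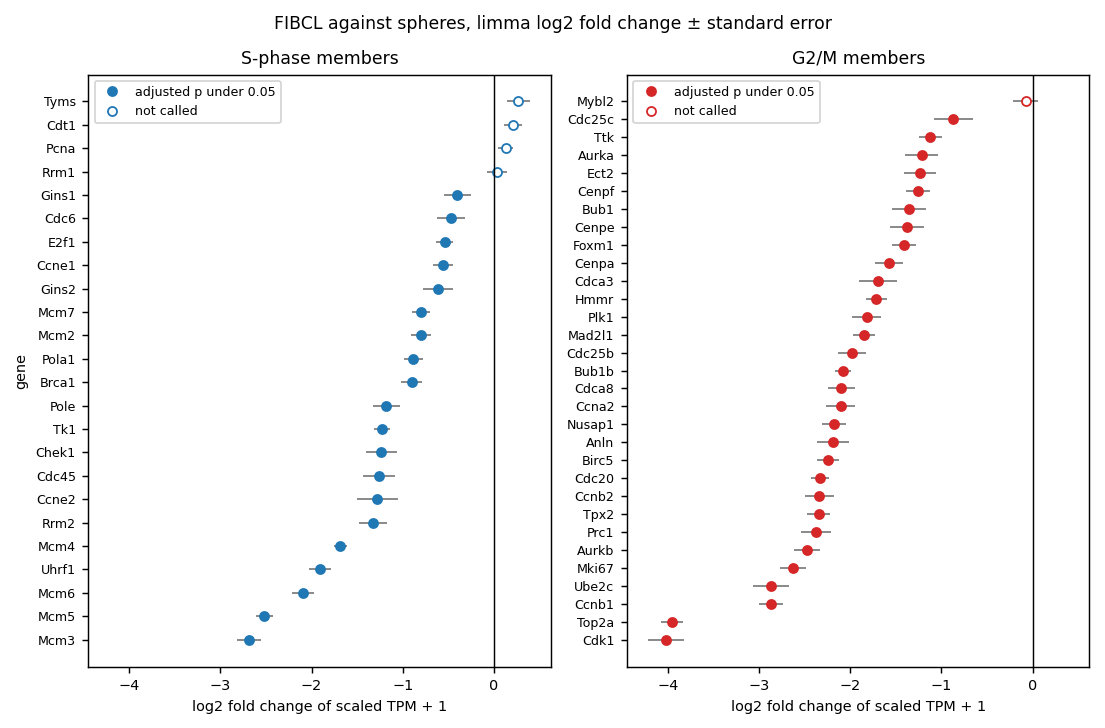
Log2 fold change of scaled TPM + 1 in FIBCL against spheres for each tested S-phase member (left, 24) and G2/M member (right, 31), with the limma standard error (bars). Filled points are called, and 20 S-phase and 30 G2/M members lie below 0 and are filled, from -4.02 for Cdk1 to -0.40 for Gins1.

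Among S-phase members, the cyclins and E2F factors that open S phase spread widely. E2f1, an activator of replication genes, measured 15.5, 13.4 and 12.5 in spheres, 8.51, 8.84 and 10.1 in FIBCL, 12.1, 11 and 12.1 in SCDM, and 20.6, 23.2 and 21 scaled TPM in the SCDM/FGF libraries. Ccne1, a cyclin E that starts replication with Cdk2, measured 5.06, 5.17 and 5.24 in spheres, 2.8, 3.42 and 3.32 in FIBCL, 7.74, 8.96 and 8.52 in SCDM, and 11.1, 13.5 and 15 in the SCDM/FGF libraries. The SCDM/FGF libraries were the highest for both genes and the FIBCL libraries the lowest, and each SCDM library was below each sphere library for E2f1. E2f1 changed by -0.21 ± 0.09 (limma adjusted p = 0.0695) in SCDM against spheres, short of the threshold but called without rescaling (-0.35) or without spheres replicate 3 (-0.28), by -0.54 ± 0.09 (limma adjusted p = 0.000209) in FIBCL against spheres and by -0.33 ± 0.09 (limma adjusted p = 0.0064) against SCDM. Ccne1 changed by 0.61 ± 0.11 (limma adjusted p = 0.000621) in SCDM and by -0.56 ± 0.11 (limma adjusted p = 0.000617) in FIBCL against spheres. Ccne2, the other cyclin E, measured 2.33, 3.4 and 2.53 in spheres, 0.454, 0.64 and 0.512 in FIBCL, 4.13, 5.33 and 7.34 in SCDM, and 5.52, 10.3 and 9.83 in the SCDM/FGF libraries and changed by -1.28 ± 0.23 (limma adjusted p = 0.000327) in FIBCL against spheres. Its change in SCDM, 0.79 ± 0.23 (limma adjusted p = 0.0121), was no longer called without SCDM replicate 3, at 0.61. E2f2, another E2F activator, was the 1 member that did not pass the filter on low values, with at most 1.42 deposited TPM, and its scaled values were 0.634, 0.393 and 0.327 in spheres and 0.621, 0.406 and 1.13 in FIBCL.

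The helicase that licenses origins did not fall as 1 unit. Mcm5, a helicase subunit, measured 9.05, 8.73 and 7.27 in spheres, 0.633, 0.763 and 0.499 in FIBCL, 15.6, 15.8 and 15.9 in SCDM, and 16.5, 19.2 and 17.6 scaled TPM in the SCDM/FGF libraries. Mcm2, another subunit of the same ring, measured 13.6, 13.1 and 11.3 in spheres, 6.67, 7.04 and 6.73 in FIBCL, 18.5, 17.9 and 17 in SCDM, and 16.5, 22.4 and 21.3 in the SCDM/FGF libraries. The FIBCL libraries were lowest for both, but at 7.56% of the sphere mean for Mcm5 and 53.9% for Mcm2. Log2 fold changes in FIBCL against spheres were -2.68 ± 0.13 for Mcm3, -2.52 ± 0.096 for Mcm5, -2.09 ± 0.12 for Mcm6 and -1.69 ± 0.07 for Mcm4. They were -0.80 ± 0.11 for Mcm2 and -0.80 ± 0.097 for Mcm7. All 6 subunits were called lower, where 38.7% of all genes were, the highest limma adjusted p being 3.48e-05 for Mcm2. The subunits thus fell into levels between 7.56% (Mcm5) and 56% (Mcm7) of the sphere mean. In SCDM against spheres, where 24.5% of all genes rose, the 6 subunits rose, by 0.18 for Mcm4 to 0.85 for Mcm5. The call for Mcm4 there was lost in 8 of the 12 fits that each left out 1 library, at 0.16 to 0.20, and was kept without FIBCL replicate 3, SCDM replicate 2 or SCDM/FGF replicate 1 or 2, and that for Mcm7 was lost without SCDM replicate 1 (0.28) or spheres replicate 1 (0.29). Both calls were lost without rescaling, at 0.046 for Mcm4 and 0.20 for Mcm7, and that for Mcm4 also with median of ratios scaling, no filter on low values, a pseudocount of 0.1 or 0.5, or the replicate block (0.18 to 0.19).

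Loaders and partners of the helicase differed in the same way. Cdc6, which loads the helicase, measured 1.29, 1.01 and 1.04 in spheres, 0.323, 0.996 and 0.328 in FIBCL, 2.65, 2.18 and 2.3 in SCDM, and 3.91, 4.52 and 4.48 scaled TPM in the SCDM/FGF libraries. Cdt1, which loads it with Cdc6, measured 9.22, 9.13 and 7.88 in spheres, 9.82, 10.7 and 10.2 in FIBCL, 6.98, 8.3 and 9.27 in SCDM, and 10.5, 10.6 and 11.5 in the SCDM/FGF libraries. Cdc6 was highest in SCDM/FGF and lowest in FIBCL, while for Cdt1 the FIBCL libraries overlapped those of SCDM/FGF and lay above every SCDM and sphere library. Cdc6 changed by -0.47 ± 0.15 (limma adjusted p = 0.0169) in FIBCL against spheres, and this call was lost without FIBCL replicate 1 (-0.38), FIBCL replicate 3 (-0.38) or spheres replicate 1 (-0.41), and with only the 2 groups fitted (-0.47). Cdt1 was the 1 member that rose in FIBCL against SCDM, by 0.30 ± 0.097 (limma adjusted p = 0.0161), and the call was lost without FIBCL replicate 2 (0.27) or SCDM replicate 1 (0.20) and turned to -0.060 without rescaling. Its change against spheres was 0.21 ± 0.097 (limma adjusted p = 0.0728), not called, but it was called with upper quartile scaling (0.27), without SCDM replicate 1 (0.21) and, in the other direction, without rescaling (-0.28). Cdc45, the helicase activator, changed by -1.26 ± 0.18 (limma adjusted p = 6.05e-05) in FIBCL against spheres. Gins1 and Gins2, subunits of the same active helicase, changed by -0.40 ± 0.15 (limma adjusted p = 0.0274) and -0.61 ± 0.17 (limma adjusted p = 0.00646), and the Gins1 call was lost without FIBCL replicate 1 (-0.24) or spheres replicate 2 (-0.32), with upper quartile scaling (-0.35), with no filter on low values and with only the 2 groups fitted (both -0.40). In FIBCL against SCDM the Gins1 call was also lost without FIBCL replicate 1, with -0.27 in place of -0.43.

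Pcna, the sliding clamp of the replication fork, had the highest level of all members in every FIBCL library. It measured 82.7, 87.3 and 82.4 in spheres, 91.7, 92.9 and 91.4 in FIBCL, 102, 105 and 114 in SCDM, and 102, 133 and 119 scaled TPM in the SCDM/FGF libraries. The SCDM/FGF and SCDM libraries overlapped and lay above the spheres, and the FIBCL libraries lay between the spheres and SCDM. Its change in FIBCL against spheres was 0.13 ± 0.079 (limma adjusted p = 0.171), not called, but it was called at the same size when only these 2 groups were fitted, and at -0.41 without rescaling. Against SCDM Pcna fell by 0.21 ± 0.079 (limma adjusted p = 0.0315), a call lost without SCDM replicate 3 (-0.17) and without any 1 of the 3 FIBCL libraries (-0.22 to -0.20), and also with upper quartile scaling (-0.17) or no filter on low values (-0.21). The polymerase subunits Pola1 and Pole fell in both comparisons, with changes of -0.88 ± 0.10 and -1.18 ± 0.15 in FIBCL against spheres. The Pcna pseudogenes Pcna-ps1 and Pcna-ps2 were listed at no more than 0.14 TPM.

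The genes of nucleotide supply split into a pair that fell below spheres in FIBCL and a pair that was not called. Rrm2, the small ribonucleotide reductase subunit made in S phase, measured 9.05, 8.98 and 8.3 in spheres, 2.44, 2.84 and 3.45 in FIBCL, 17.6, 19.6 and 21.3 in SCDM, and 23.1, 36.4 and 32.7 scaled TPM in the SCDM/FGF libraries. Tk1, the thymidine kinase of dividing cells, measured 10.2, 9.65 and 10.2 in spheres, 3.58, 3.94 and 3.56 in FIBCL, 17.9, 18.5 and 20.8 in SCDM, and 19.3, 24.4 and 22.3 in the SCDM/FGF libraries. Tyms, which makes thymidylate, measured 13.7, 12 and 14.1 in spheres, 14.3, 18.9 and 15.4 in FIBCL, 36.7, 37.7 and 39.9 in SCDM, and 23, 32.9 and 26.3 in the SCDM/FGF libraries. The FIBCL libraries were the lowest for Rrm2 and Tk1, but for Tyms each of them was above every sphere library and below every SCDM library. In FIBCL against spheres Rrm2 changed by -1.33 ± 0.15 (limma adjusted p = 9.89e-06) and Tk1 by -1.23 ± 0.088 (limma adjusted p = 1.75e-07). Tyms changed by 0.27 ± 0.13 (limma adjusted p = 0.0815) and Rrm1, the large reductase subunit, by 0.028 ± 0.11 (limma adjusted p = 0.83), and neither was called. Tyms was called with upper quartile scaling (0.33), without FIBCL replicate 1 (0.35) and without SCDM/FGF replicate 2 (0.26), and Rrm1 was called at -0.49 without rescaling. Against SCDM, where 39% of all genes fell, all 4 fell, from -2.39 for Rrm2 to -0.92 for Rrm1. Tyms had the largest rise of the S-phase members in SCDM against spheres, 1.46 ± 0.13 (limma adjusted p = 2.42e-06), and Rrm2 the largest in SCDM/FGF against spheres, 1.68 ± 0.15 (limma adjusted p = 3.47e-06).

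Checkpoint, repair and methylation upkeep genes fell in FIBCL. Chek1, the kinase that stalls the cycle when replication is disturbed, measured 2.56, 2.51 and 2.29 in spheres, 0.239, 0.689 and 0.499 in FIBCL, 6.05, 3.66 and 3.69 in SCDM, and 3.99, 4.79 and 4.75 scaled TPM in the SCDM/FGF libraries. Uhrf1, which copies DNA methylation onto the new strand, measured 8.57, 7.47 and 7.76 in spheres, 1.8, 1.01 and 1.38 in FIBCL, 14.3, 15 and 15.4 in SCDM, and 21.4, 26.3 and 24.1 in the SCDM/FGF libraries. Both were lowest in FIBCL without overlap, and Uhrf1 was highest in SCDM/FGF, above every SCDM library. Chek1 changed by -1.24 ± 0.17 (limma adjusted p = 4.36e-05) and Uhrf1 by -1.91 ± 0.12 (limma adjusted p = 5.04e-08) in FIBCL against spheres. Brca1, which repairs broken DNA, changed by -0.90 ± 0.11 (limma adjusted p = 2.25e-05) there.

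The classes went in opposite directions when SCDM/FGF was set against SCDM, media that differ by bFGF at 100 ng/ml. There 21.8% of all genes tested rose and 21.3% fell. Of 24 S-phase members tested 9 rose and 1 fell, and their median log2 fold change was 0.21. Of 31 G2/M members 1 rose and 13 fell, and theirs was -0.33, beside -0.02 over all genes. No member passed a log2 fold change of 1 in size, while 2.88% of all genes were called at 1.5 or above and 1.97% at -1.5 or below. Each class median kept its sign in all 12 fits that left out 1 library, from 0.11 to 0.29 for S-phase and from -0.49 to -0.21 for G2/M members. Without SCDM replicate 3 the number of G2/M members that fell was 8. The S-phase level less the G2/M level, given above, did not overlap between these groups, being below 0 in each SCDM library and above 0 in each SCDM/FGF library.

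The S-phase members that rose with bFGF were E2f1, Cdc6, Uhrf1, Rrm2, Gins2, Ccne1, Cdc45, Mcm4 and Cdt1. E2f1 rose the most, by 0.83 ± 0.09 (limma adjusted p = 1.76e-05), with 12.1, 11 and 12.1 scaled TPM in SCDM and 20.6, 23.2 and 21 in SCDM/FGF. Cdc6 rose by 0.65 ± 0.15 (limma adjusted p = 0.00523), Uhrf1 by 0.65 ± 0.12 (limma adjusted p = 0.000964) and Ccne1 by 0.59 ± 0.11 (limma adjusted p = 0.000954). The Cdc6 call was lost with a pseudocount of 0.1 (0.83). Each of these 4 genes was higher in every SCDM/FGF library than in any SCDM library. Rrm2 rose by 0.61 ± 0.15 (limma adjusted p = 0.00656) and Cdt1 by 0.38 ± 0.097 (limma adjusted p = 0.00857). Gins2 rose by 0.60 ± 0.17 (limma adjusted p = 0.0133), and its call was lost without SCDM replicate 2 (0.51) or SCDM/FGF replicate 3 (0.47). Mcm4 rose by 0.44 ± 0.07 (limma adjusted p = 0.000378), while the other 5 helicase subunits were not called, at 0.0067 for Mcm7 to 0.16 for Mcm5. The Cdc45 call, at 0.50 ± 0.18 (limma adjusted p = 0.0411), was lost in 7 of the 12 fits that left out 1 library (all but those without a FIBCL library, SCDM replicate 2 or SCDM/FGF replicate 1) and in 7 other settings (0.43 to 0.56), and its groups overlapped. Tyms was the 1 S-phase member that fell, at -0.48 ± 0.13 (limma adjusted p = 0.0101), with every SCDM/FGF library below every SCDM library.

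The G2/M members that fell with bFGF were led by Cenpa, Ccnb2 and Cdc25b. Cenpa measured 40.9, 35.2 and 40.6 scaled TPM in SCDM and 18.2, 23.6 and 20.7 in SCDM/FGF, and fell by 0.87 ± 0.15 (limma adjusted p = 0.00076). Ccnb2, a cyclin B, measured 18.6, 17.5 and 19.6 and 7.99, 14.1 and 8.78, and fell by 0.83 ± 0.16 (limma adjusted p = 0.00141). Cdc25b measured 13.1, 16.3 and 19.4 and 8.81, 10.3 and 8.88, and fell by 0.72 ± 0.15 (limma adjusted p = 0.00251). For these 3 genes no SCDM/FGF library reached the lowest SCDM library. Cenpf changed by -0.67 ± 0.13 (limma adjusted p = 0.00169), Bub1b, a spindle checkpoint kinase, by -0.62 ± 0.087 (limma adjusted p = 0.000133), and Cdc20, an activator of the anaphase-promoting complex, by -0.56 ± 0.10 (limma adjusted p = 0.000802). Mki67 fell by 0.49 ± 0.14 (limma adjusted p = 0.0144), a call lost without SCDM replicate 2 (-0.43), SCDM replicate 3 (-0.45) or SCDM/FGF replicate 3 (-0.39). Cdk1, at -0.15 ± 0.20 (limma adjusted p = 0.576), and Top2a, at -0.095 ± 0.12 (limma adjusted p = 0.553), were not called and their groups overlapped. Of the 12 fits that left out 1 library, 9 lost the call for Nusap1, 4 that for Cdca3 and 4 that for Cdca8, and the Cdc25c call was lost without SCDM replicate 3 (-0.50) or SCDM/FGF replicate 1 (-0.61). These 4 calls were also lost in 2 to 5 other settings each, all 4 of them with no filter on low values. Hmmr and Tpx2 completed the 13, at -0.51 ± 0.12 and -0.48 ± 0.13. Mybl2 was the 1 G2/M member that rose, by 0.45 ± 0.14 (limma adjusted p = 0.0233), and its call was lost without SCDM replicate 1 (0.39) or SCDM/FGF replicate 2 (0.33), with a pseudocount of 0.1 (0.55) and with no filter on low values (0.45). Mesenchymal markers summed to less and endothelial markers to more in SCDM/FGF than in SCDM. The endothelial sums were 264 to 303 against 42.8 to 51.2 scaled TPM. Within each list the markers split, 3 mesenchymal ones called higher and 3 lower, and 2 endothelial ones higher and 2 lower. The part of these cell types in the differences above was not tested.

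**Figure D4:**
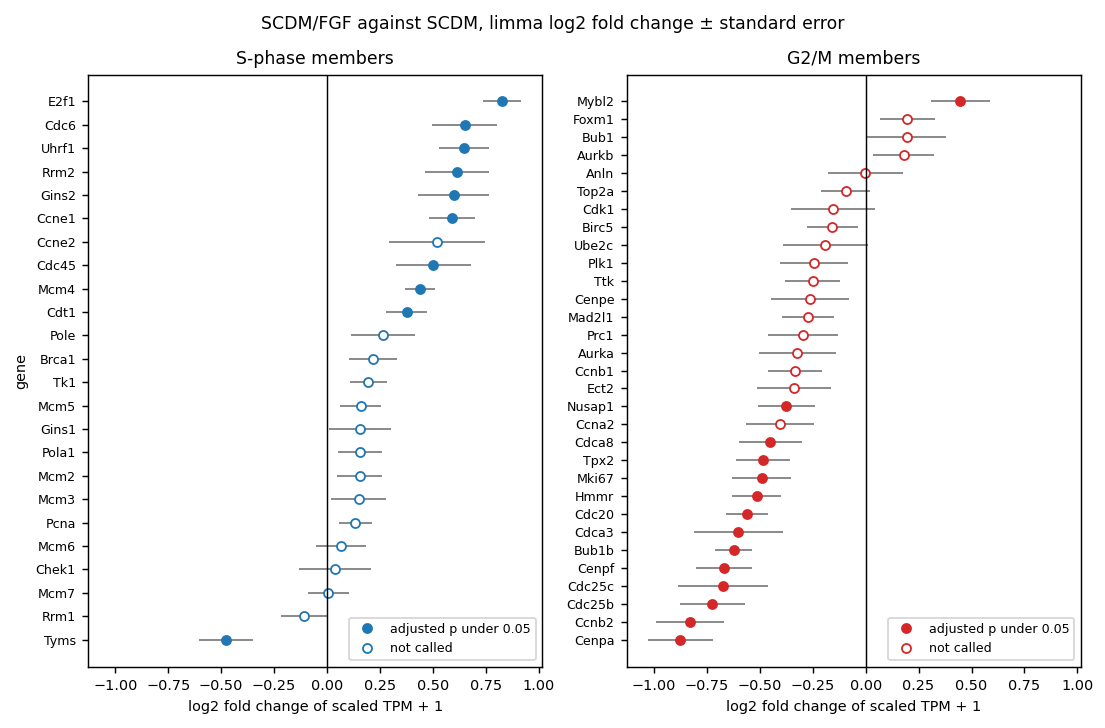
Log2 fold change of scaled TPM + 1 in SCDM/FGF against SCDM for each tested S-phase member (left) and G2/M member (right), with the limma standard error (bars); filled points are called. Most S-phase points lie right of 0, up to 0.83 for E2f1, and most G2/M points left of 0, down to -0.87 for Cenpa.

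Of 23 further genes for pocket proteins, CDK inhibitors and the DREAM and MuvB complexes, 15 were lower and 4 higher in FIBCL than in SCDM, where 39% of all genes were lower and 32.7% higher, and their median was -0.36. Cdkn1a (p21), a CDK inhibitor, measured 214, 214 and 206 in spheres, 852, 887 and 893 in FIBCL, 124, 128 and 118 in SCDM, and 249, 242 and 285 scaled TPM in the SCDM/FGF libraries. The FIBCL libraries were the highest and the SCDM libraries the lowest, without overlap of any 2 of the 4 groups. Cdkn1a rose by 2.05 ± 0.057 (limma adjusted p = 6.15e-11) in FIBCL against spheres and by 2.82 ± 0.057 (limma adjusted p = 5.27e-12) against SCDM, and its SCDM value was -0.77 ± 0.057 (limma adjusted p = 6.6e-07) against spheres. With bFGF added to SCDM it rose by 1.06 ± 0.057 (limma adjusted p = 5.41e-08). Cdkn1b (p27), a related inhibitor, measured 38.7, 39.6 and 39.8 in spheres, 15.2, 12.5 and 14.7 in FIBCL, 44.3, 40 and 43.3 in SCDM, and 30.9, 32.2 and 27.4 in the SCDM/FGF libraries and fell by 1.53 ± 0.078 (limma adjusted p = 8.35e-09) in FIBCL against SCDM. Cdkn1c (p57) measured 52.7, 63.4 and 60.1 in spheres, 13.9, 16.4 and 10.8 in FIBCL, 15.2, 11.9 and 10.1 in SCDM, and 12.2, 17.9 and 15.5 in the SCDM/FGF libraries, so the spheres stood above the other 3 groups, which overlapped. It fell by 2.17 ± 0.18 (limma adjusted p = 1.44e-06) in SCDM against spheres, and the difference between FIBCL and SCDM was 0.14 ± 0.18 (limma adjusted p = 0.507), not called. The 3 inhibitors thus had different orders over the groups, with FIBCL highest for Cdkn1a, SCDM and spheres highest for Cdkn1b and spheres highest for Cdkn1c.

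Pocket proteins also went separate ways. Rb1 measured 11.9, 10.1 and 11.6 in spheres, 18.6, 19.3 and 20.2 in FIBCL, 10.9, 11.8 and 9.9 in SCDM, and 10.5, 14.6 and 11.8 scaled TPM in the SCDM/FGF libraries and rose by 0.78 ± 0.11 (limma adjusted p = 5.41e-05) in FIBCL against SCDM. Its rise against spheres, 0.74 ± 0.11 (limma adjusted p = 8.44e-05), was 0.23 and not called without rescaling. Rbl1 (p107), which is itself made in S phase, measured 5.7, 6.25 and 6.77 in spheres, 2.82, 3.58 and 3.79 in FIBCL, 7.48, 8.3 and 8.74 in SCDM, and 5.95, 7.7 and 7.3 in the SCDM/FGF libraries and fell by 1.07 ± 0.12 (limma adjusted p = 6.95e-06) in FIBCL against SCDM. Rbl2 (p130), the pocket protein of resting cells, fell by 0.59 ± 0.097 (limma adjusted p = 0.000205). FIBCL was highest for Rb1 and lowest for Rbl1 and Rbl2, with no overlap with the other groups. The 2 highest called genes of this list between FIBCL and SCDM were Cdkn1a and Rb1, and the lowest was Wee1, a kinase that holds Cdk1 off, at -2.11. The related kinase Pkmyt1 followed at -1.53 ± 0.12, level with Cdkn1b. In SCDM against spheres 4 genes of the list were called higher and 5 lower, shares not above the 24.5% and 25.8% of all genes. E2f7, an E2F repressor, rose the most there, by 0.80 ± 0.18, ahead of Rbl1 at 0.34 ± 0.12, and Cdkn1c and Cdkn1a fell the most. The Rbl1 call was lost without SCDM replicate 2 (0.33), SCDM replicate 3 (0.30), spheres replicate 1 (0.28) or spheres replicate 2 (0.34).

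**Figure D5:**
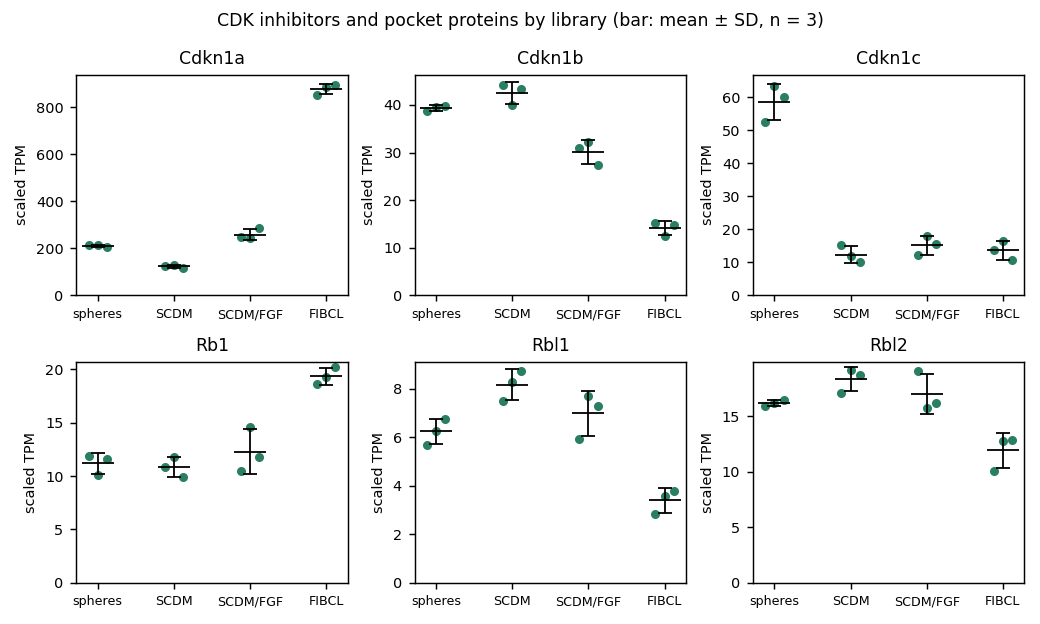
Scaled TPM of 3 CDK inhibitors (top) and 3 pocket proteins (bottom) in each library (points), with the group mean and SD (black, n = 3). Cdkn1a and Rb1 are highest in FIBCL, at 852 to 893 and 18.6 to 20.2, while Cdkn1b, Rbl1 and Rbl2 are lowest there and Cdkn1c is highest in spheres.

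Further genes of each phase, chosen from the same pathways and not among the 56, gave counts of the same direction. Between SCDM and FIBCL 38 of 47 other replication genes fell and 0 rose (median -0.83), and 47 of 48 other mitotic genes fell and 0 rose (median -2.21). Of all genes tested, 39% fell and 32.7% rose there. The least changed of the called replication genes were the origin gene Orc3 at -0.16 and Gins4 at -0.21, calls lost in 4 and 3 of the 12 fits with 1 library left out. Among mitotic genes, the kinase Pbk changed by -3.94 and the kinesin Kif22 by -3.67, while Ccnf changed by -0.45 and Pttg1, the securin, by -0.31. The Pttg1 call was lost without FIBCL replicate 1 (-0.26), SCDM replicate 1 (-0.27) or SCDM replicate 3 (-0.28). Bub3 was the 1 mitotic gene not called, at 0.039 ± 0.052.

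In SCDM against spheres 47 of the 48 other mitotic genes rose and 0 fell (median 1.10). Of the 47 other replication genes 27 rose and 2 fell (median 0.31). Among all genes tested, 24.5% rose and 25.8% fell in that comparison. Kif23, a kinesin of cytokinesis, rose by 1.77 and Spc24, a kinetochore protein, by 1.61. Dut, which clears dUTP, rose by 1.17. The 2 that fell were Cdc7, the kinase that fires origins, at -0.46, and Rpa1, at -0.13, calls lost in 2 and 5 of the 12 fits with 1 library left out. In SCDM/FGF against SCDM 13 other replication genes rose and 1 fell (median 0.16), and 1 other mitotic gene rose and 11 fell (median -0.25). The background there was 21.8% of all genes higher and 21.3% lower, so the 13 that rose and the 11 that fell were shares near it.

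Set against the promoter letters, the S-phase members with E2F letters had a median log2 fold change between SCDM and FIBCL of -2.04 (n = 8), from -3.37 to 0.30, and those without had -1.27 (n = 11), from -2.39 to -0.21. Both Mcm5 and Cdt1 hold E2F letters and stand at the ends of that range. Among G2/M members the median was -3.26 with CHR letters (n = 20) and -2.94 without (n = 6), and these ranges overlapped from -3.96 to -1.95.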

How the data were processed

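Poly(A) RNA-seq was analysed in 12 libraries, which the sample labels put into 4 groups of 3 (spheres, FIBCL, SCDM and SCDM/FGF). The authors trimmed reads with SeqPrep and Sickle, and the submitters' processing notes name TopHat, Cufflinks and RSEM. The genome build is not given in the sources used here. The deposited values are TPM with 2 decimals for 55487 genes, whereas the methods describe fragments per kilobase. TPM is relative to the RNA of its own library and keeps no read number, so the depth is unknown and no counting interval was computed. The authors tested with EdgeR. A count model had been planned here and was replaced by limma because the values are TPM.

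Genes reaching 1 TPM in 3 or more libraries were kept (16016). Each library was rescaled by a mean log2 ratio to the average library, trimmed by 30% at each end, over the 8434 genes that reached 5 TPM throughout. Log2(scaled TPM + 1) was fitted in limma 3.58.1 (R 4.3.3) with a variance trend, in 1 model of the 4 groups with 6 comparisons. Benjamini-Hochberg adjustment ran over all genes tested in each comparison, and a gene was called at an adjusted p under 0.05. Wherever the text gives a limma adjusted p, it is this one. The model was tested on simulated data. Libraries are labelled biological replicates, but nothing ties them to separate animals, so p-values measure the spread between these libraries.

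The members and the lists were chosen with earlier results of these data known, so their counts are descriptions beside the counts over all genes. Values in every library are given for Mki67, Top2a, Cdk1, Ccnb1, Plk1, Aurkb, Foxm1, Mybl2, E2f1, Ccne1, Ccne2, Pcna, Mcm2, Mcm5, Cdc6, Cdt1, Rrm2, Tyms, Tk1, Uhrf1 and Chek1. Also named were the highest and lowest members of each class and comparison, members that were untested, not called or called against most of their class, the 2 highest and 2 lowest called genes of each further list, and 6 CDK inhibitors and pocket proteins. Some genes that this rule names are not reported here. Other genes were named after their values were seen. Symbols matched GENCODE M21 (GRCm38), and promoters are RefSeq's. Alternatives covered scaling, filters, pseudocounts, thresholds, samples in the model, a replicate block and each library left out in turn. Python 3.11.15 with matplotlib 3.10.9 and pandas 2.3.3 made the figures and tables.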

Additional observations from a re-analysis of the deposited data

How the results depend on the processing

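Class counts and medians kept their direction under every scaling, filter, pseudocount, model and left-out library tried, and sizes moved. A limit of 1.5 on the log2 fold change left 0, 1, 5, 12, 14 and 0 S-phase members in the 6 comparisons, taken in the order SCDM against spheres, SCDM/FGF against spheres, FIBCL against spheres, FIBCL against SCDM, FIBCL against SCDM/FGF and SCDM/FGF against SCDM and numbered 1 to 6 here. It left 4, 1 and 0 G2/M members in comparisons 1, 2 and 6. A limit of 1 left 2, 9, 11 and 0 S-phase members in comparisons 1, 2, 3 and 6, and 13 and 0 G2/M members in 2 and 6. Without rescaling the S-phase medians of 1 to 5 were 0.53, 0.64, -1.30, -1.62 and -1.95, and the G2/M medians of 2 to 4 were 0.73, -2.41 and -3.40. With a pseudocount of 0.1 the S-phase medians were 0.81, -1.29, -2.07 and -2.52 in 1, 3, 4 and 5, and the G2/M medians of 1 to 5 were 1.40, 1.06, -2.84, -4.28 and -3.95. With 0.5 they were -1.15, -1.74 and -2.25 for S-phase and -2.43, -3.76 and -3.30 for G2/M members in the 3 FIBCL comparisons. These shifts follow from the pseudocount, which damps low values. The mean in place of the median gave -0.99 and -1.57 for S-phase members in FIBCL against spheres and SCDM, and a filter of 5 TPM in 3 libraries, which keeps fewer members, gave -3.35 and -2.91 for G2/M members in FIBCL against SCDM and SCDM/FGF.

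Leaving out 1 library at a time, the S-phase median ran from 0.77 to 0.93 in SCDM/FGF against spheres and from -1.91 to -1.70 in FIBCL against SCDM/FGF. The G2/M median ran from -2.92 to -2.64 in FIBCL against SCDM/FGF and from -0.49 to -0.21 in SCDM/FGF against SCDM, where the number that fell ran from 8 (without SCDM replicate 3) to 16. Without rescaling, 4 log2 fold changes of members that were called with or without it changed sign, Pcna to -0.41, Cdt1 to -0.28 and Rrm1 to -0.49 in FIBCL against spheres and Cdt1 to -0.060 against SCDM, as all FIBCL values shifted down.

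No pairing by replicate number was visible, as 0 of 18 same-numbered pairs had deviations correlated over 0.1 (r from -0.12 to 0.098). Low correlations cannot show that same-numbered libraries had separate origins. With the replicate block, 14 G2/M members fell in SCDM/FGF against SCDM in place of 13, and S-phase members that rose in SCDM against spheres numbered 19 in place of 20. DESeq2 was not run because the values are TPM.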
